A study of Mus musculus with 12 samples.

Results

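LY6D+ cells sorted from the mouse prostate as luminal, with an intermediate surface level of SCA1 (SCA1int), were compared with LY6D- cells of the same SCA1 level, across all genes. The libraries were taken by their cell population label: 2 libraries of LY6D+ SCA1int and 2 of LY6D- SCA1int, or 4 of the 12 in the series. The other 8 hold LY6D+ and LY6D- cells at SCA1low and SCA1high, with 2 libraries per population, and entered the fit to estimate the spread between libraries. All cells came from prostates of wild type C57BL/6 mice aged 6 to 8 weeks and were sorted as negative for CD31, CD45 and Ter119, the surface proteins of endothelium, leukocytes and red cells. Each population is thus defined by a sort of fresh tissue, and the labels do not name the prostate lobe or the number of animals behind a library.

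Luminal cells line the prostate ducts. In the mouse many of them are secretory: under androgen they release proteins such as probasin, beta-microseminoprotein, spermine-binding protein and protease inhibitors into the seminal fluid, and they fold these proteins in a large endoplasmic reticulum (ER). LY6D and SCA1 (the product of Ly6a) are small lipid-anchored surface proteins of the LY6 family. SCA1 is used to enrich for progenitor-like and proximal duct cells.

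Values are CPM (counts divided by the TMM-scaled library size) of tags from the 3′ ends of polyadenylated RNA. Total counts were 19020868 and 16758380 in the LY6D+ SCA1int libraries, and 19842647 and 11465798 in the LY6D- SCA1int libraries. Replicates of a population were not the most alike libraries. Log2 CPM correlated across genes at 0.69 within LY6D+ SCA1int, 0.68 within LY6D- SCA1int and 0.65 to 0.67 between them. Each of the 4 libraries correlated more with LY6D+ SCA1high replicate 1 than with its own replicate. These values were 0.73 and 0.72 for LY6D+ SCA1int, and 0.690 and 0.692 for LY6D- SCA1int. Features of the ribosomal RNA repeat took 12.2% to 16.9% of the counts of these 4 libraries. Both second replicates held counts of genes specific to other libraries. LY6D+ SCA1high replicate 2 had 37 specific genes, and their median level in LY6D+ SCA1int replicate 2 was 6.91% of that in their own library, against 0.107% in replicate 1. For the 14 such genes of LY6D- SCA1high replicate 1 it was 14.8% in LY6D- SCA1int replicate 2, against 0.653% in replicate 1. How these counts, called traced counts below, came there was not tested.

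Ly6d itself followed the sort. It had 134 and 64.4 CPM in the LY6D+ SCA1int libraries, against 1.44 and 2.23 CPM in the LY6D- SCA1int libraries. The log2 fold change was 5.76 ± 1.20 (SE, adjusted p = 0.0271, quasi-likelihood test of edgeR, Benjamini-Hochberg adjustment over all 15270 genes tested, as for every adjusted p here). Ly6a had 44.9 and 55.5 CPM in LY6D+ cells and 102 and 148 CPM in LY6D- cells, a log2 difference of -1.32 ± 0.71 that did not pass (adjusted p = 0.665). Within each LY6D state Ly6a followed the SCA1 gate: 3.37 and 13.5 CPM at SCA1low, 44.9 and 55.5 CPM at SCA1int and 181 and 245 CPM at SCA1high in LY6D+ cells, with 24.8 and 68.8, 102 and 148, and 593 and 477 CPM at the same levels in LY6D- cells. Without LY6D+ SCA1int replicate 1, LY6D- SCA1int replicate 1, LY6D- SCA1int replicate 2 or LY6D+ SCA1high replicate 2, Ly6d did not pass (5.15, 5.51, 6.16 and 5.77 on the log2 scale, adjusted p = 0.102, 0.546, 0.419 and 0.138 in that order).

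Some keratins of both SCA1int populations went against the luminal label, so both are called by their sort. The luminal keratin Krt8 had 85.2 and 66.4 CPM in LY6D+ cells and 276 and 76.1 CPM in LY6D- cells, which overlapped (-1.22 ± 0.74, adjusted p = 0.665, and 0.033 without LY6D- SCA1int replicate 1). Krt18, its partner, had 129.8 and 128 CPM in LY6D+ cells and 284 and 173 CPM in LY6D- cells (-0.83 ± 0.56, adjusted p = 0.684). The basal keratins Krt5, Krt14 and Krt15 had 318 and 284, 373 and 324, and 2734 and 1482 CPM in LY6D+ cells. In 3′ tags, whose number does not scale with transcript length, all 3 thus lay above Krt8 and Krt18 in both LY6D+ libraries. In LY6D- cells Krt15 did too, with 964 and 1087 CPM. Krt5 (95.7 and 199 CPM) and Krt14 (178 and 193 CPM) lay under Krt8 and Krt18 in LY6D- replicate 1 and above both in LY6D- replicate 2. Krt17, another basal keratin, had 91.3 and 50.3 CPM in LY6D+ cells, under Krt18 in both libraries. The basal marker Trp63 had 72.2 and 197 CPM in LY6D+ cells, under Krt8 and Krt18 in replicate 1 and above them in replicate 2.

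Ptprc (CD45), which marks an excluded lineage, had at most 0.216 CPM in the 4 libraries. Pecam1 (CD31) had 2.43 and 49 CPM in LY6D+ cells and 144 and 159 CPM in LY6D- cells.

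At an adjusted p below 0.05, 31 genes differed, or 0.203% of those tested. LY6D+ cells were higher for 3 genes (0.0196%) and lower for 28 (0.183%). Of the 28, 21 are protein-coding, 2 are small nucleolar RNAs and 3 are small RNAs of another class. At an unadjusted p below 0.05 the directions were even, with 495 genes higher (3.24%) and 447 lower (2.93%), and the median log2 fold change over all genes was 0.00. Secreted proteins of the prostate were the best represented of the listed groups, with 7 of the 28. The lists were chosen with earlier results of these data known. The others of the 28 include Hspa5, C1ra, C1rb and the major histocompatibility complex (MHC) genes B2m and H2-D1. The labels do not say whether the 2 libraries of a population came from separate animals, though the series text speaks of biological replicates, so the spread behind each p-value may be technical.

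**Figure D1:**
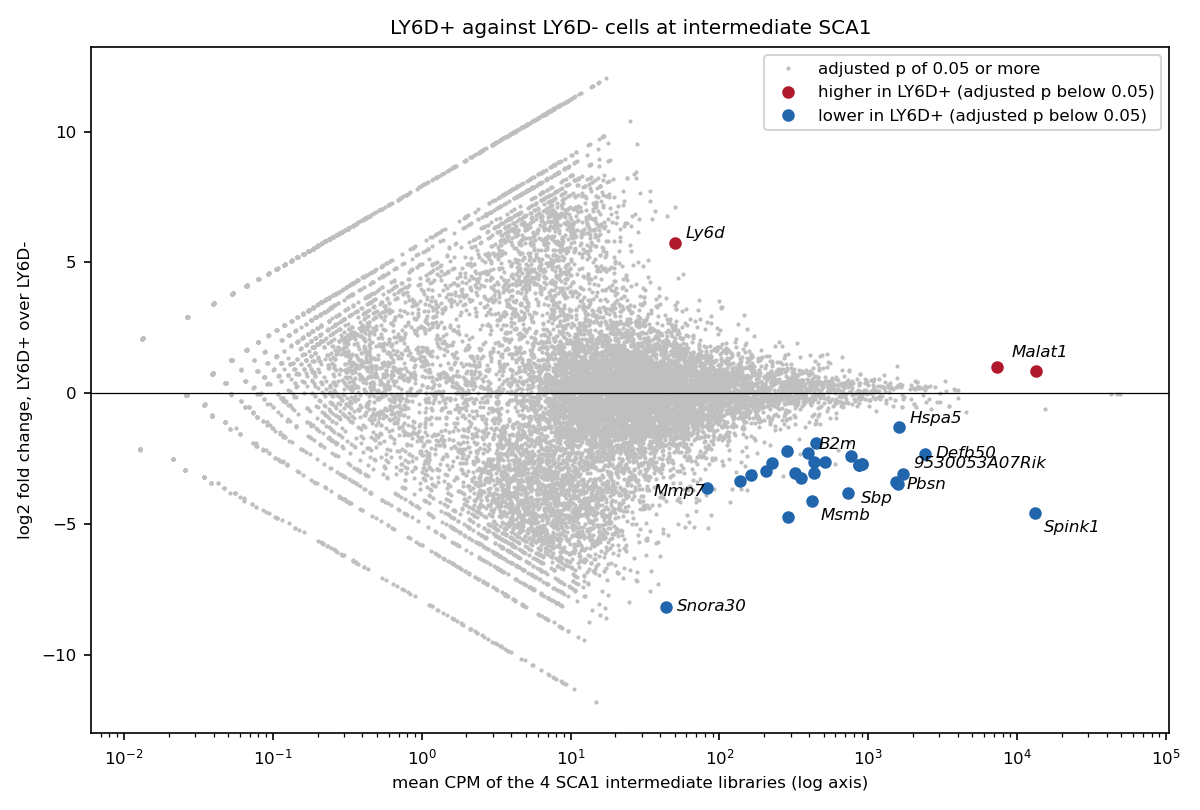
Each point is a gene, placed by its mean CPM over the 4 SCA1int libraries (x, log axis) and its log2 fold change in LY6D+ over LY6D- cells (y). The 28 genes lower in LY6D+ cells (blue) have log2 fold changes of -8.19 (Snora30) to -1.29 (Hspa5), and the 3 higher genes (red) are Ly6d, Malat1 and Gm37376.

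Of the listed groups, secreted proteins had the lowest median log2 difference. This list was chosen with earlier results of these data known and holds the markers Spink1, Msmb, Pbsn and Defb50. Its place and counts are thus a description and not a test. Of 25 listed prostate secreted proteins 22 could be tested, 7 of these fell and none rose. The median log2 difference over the 22 was -3.74, and the 22 values ran from -8.97 to -0.55. At an unadjusted p below 0.05 there were 16 of them, and 2.93% of all genes tested were lower at that p. In 18 of the 22 both LY6D+ libraries lay under both LY6D- libraries, which holds for 17.3% of all genes tested. In bulk RNA of this kind, fewer secretory cells and less secretory RNA per cell cannot be told apart.

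Spink1, a secreted trypsin inhibitor, was the most abundant of them. It had 653 and 1437 CPM in the LY6D+ libraries, against 22780.2 and 27939 CPM in the LY6D- libraries. The groups were far apart, and the log2 fold change was -4.60 ± 0.35 (adjusted p = 3.29e-09). Pbsn, which encodes probasin, an androgen-driven lipocalin, had 183 and 343 CPM in LY6D+ cells, against 3055 and 2545 CPM in LY6D- cells. Its log2 fold change was -3.41 ± 0.30 (adjusted p = 4.46e-08). Msmb, for the abundant seminal protein beta-microseminoprotein, had 39.8 and 50.3 CPM in LY6D+ cells and 808 and 785 CPM in LY6D- cells (log2 fold change -4.14 ± 0.57, adjusted p = 0.000208). For all 3 genes the replicates of a group lay close together relative to the gap.

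Defb50, a beta-defensin, had 865 and 712 CPM in LY6D+ cells, against 3752 and 4219 CPM in LY6D- cells. This was a smaller step than for Spink1, with a log2 fold change of -2.34 ± 0.25 (adjusted p = 2.45e-06). Sbp, the spermine-binding protein, had 67.9 and 450.2 CPM in LY6D+ cells and 2170.2 and 3642 CPM in LY6D- cells (log2 fold change -3.49 ± 0.49, adjusted p = 0.000239). Its close copy Sbpl had 6.15 and 185 CPM in LY6D+ cells and 1032 and 1701 CPM in LY6D- cells (-3.84 ± 0.78, adjusted p = 0.0208). For both, LY6D+ replicate 2, which held traced counts, was the higher one, and reads of the 2 copies may be shared. With the traced counts subtracted, Sbp kept its call and Sbpl did not, at a value nearly as large (-3.60, adjusted p = 0.137). The call of Sbpl was also lost with RLE size factors, a scaling by median ratios (-3.59, adjusted p = 0.0713) and with DESeq2 (-3.60, adjusted p = 0.0514). Without LY6D+ SCA1int replicate 2 the values were -5.39 for Sbp and -7.77 for Sbpl, and without LY6D+ SCA1int replicate 1 they were -2.67 and -2.87.

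9530053A07Rik (chr7:28129466-28164811, GRCm38, plus strand), a protein-coding gene, had 419 and 295 CPM in LY6D+ cells and 2938 and 3142 CPM in LY6D- cells. It fell by 3.09 ± 0.28 on the log2 scale (adjusted p = 5.98e-08). Fcgbp, which lies before it on the same strand (chr7:28071236-28120862), for a mucus-associated protein, had 23.2 and 44.5 CPM in LY6D+ cells and 307 and 280.0 CPM in LY6D- cells (log2 fold change -3.12 ± 0.68, adjusted p = 0.0436). Mmp7, the epithelial protease matrilysin, had 16.6 and 8.15 CPM in LY6D+ cells and 136 and 171 CPM in LY6D- cells (-3.63 ± 0.69, adjusted p = 0.0115). None of these groups overlapped. Fcgbp did not pass without LY6D+ SCA1int replicate 1 (-2.70, adjusted p = 0.216) or LY6D- SCA1int replicate 1 (-3.01, adjusted p = 0.0750), nor Mmp7 without LY6D+ SCA1int replicate 2 (-3.18, adjusted p = 0.121).

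Zdhhc3, a palmitoyltransferase gene, also fell, with 169 and 114 CPM in LY6D+ cells and 937 and 813 CPM in LY6D- cells (log2 fold change -2.63 ± 0.48, adjusted p = 0.00657). It overlaps Tgm4, the prostate transglutaminase, on the other strand. Tgm4 is named here for that overlap, after its values were seen. It had 181 and 138 CPM in LY6D+ cells and 1119 and 958 CPM in LY6D- cells, and did not pass (log2 fold change -2.70, adjusted p = 0.1). Since the strand setting of the counting is not given in the sources used here, reads of the 2 genes cannot be told apart.

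**Figure D2:**
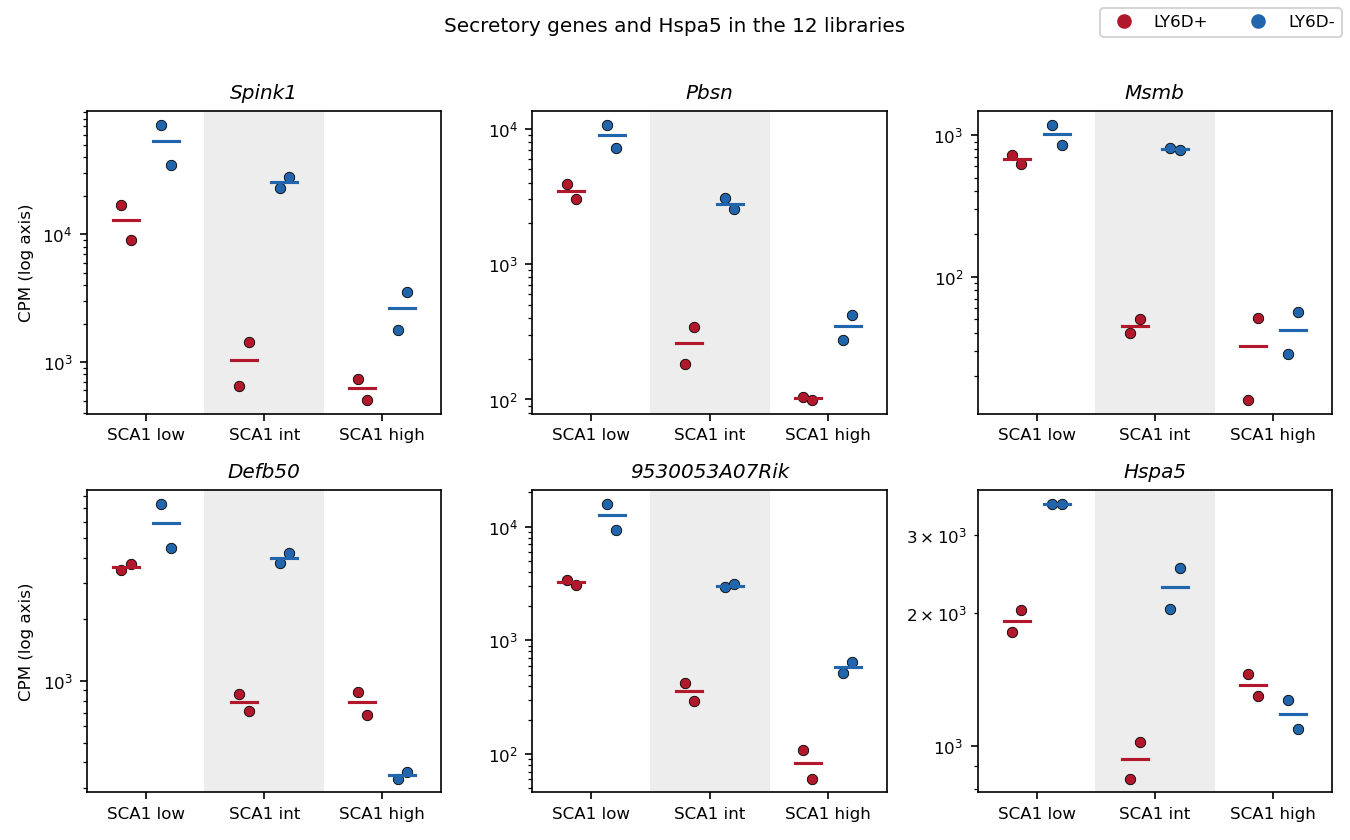
CPM (log axes) of 6 genes in every library, by SCA1 level on the x axis with LY6D+ left (red) and LY6D- right (blue) at each level. Points are libraries, short lines are means of 2 libraries, and the SCA1int populations are shaded. At SCA1int the LY6D+ points of Spink1, Msmb and Defb50 sit near those of LY6D+ SCA1high cells, and the LY6D- points of Spink1, Msmb and Defb50 near those of LY6D- SCA1low cells. The LY6D- SCA1int points of Pbsn and 9530053A07Rik lie below those of LY6D- SCA1low cells.

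The position of both populations on the SCA1 series differed. In LY6D+ cells Spink1 had 16940.3 and 9020.5 CPM at SCA1low, 653 and 1437 CPM at SCA1int and 742 and 507 CPM at SCA1high. In LY6D- cells the same levels gave 71398 and 34790.4 CPM, 22780.2 and 27939 CPM, and 1792 and 3504 CPM. LY6D+ cells were thus already low at SCA1int, while LY6D- cells were low at SCA1high. LY6D+ SCA1int cells were 3.63 lower than LY6D+ SCA1low cells on the log2 scale (adjusted p = 9.3e-08) and 0.74 from LY6D+ SCA1high cells (adjusted p = 0.846). LY6D- SCA1int cells were 3.26 higher than LY6D- SCA1high cells (adjusted p = 7.16e-07) and -1.07 from LY6D- SCA1low cells (adjusted p = 0.31).

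Msmb and Defb50 ran the same way, while Pbsn and 9530053A07Rik lay between the levels. Against LY6D+ SCA1low cells, LY6D+ SCA1int cells differed by -3.90 for Msmb (adjusted p = 0.000514) and by -2.20 for Defb50 (adjusted p = 8.16e-06). Against LY6D- SCA1high cells, LY6D- SCA1int cells were higher by 4.24 for Msmb (adjusted p = 0.000124) and by 3.52 for Defb50 (adjusted p = 2.78e-09). For Pbsn, LY6D- SCA1int cells were lower than LY6D- SCA1low cells (-1.67, adjusted p = 0.00297), and LY6D+ SCA1int cells were 1.36 from LY6D+ SCA1high cells (adjusted p = 0.0947). 9530053A07Rik differed at every step, with -2.05 between LY6D- SCA1int and LY6D- SCA1low cells (adjusted p = 0.000106) and 2.08 between LY6D+ SCA1int and LY6D+ SCA1high cells (adjusted p = 0.000161).

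Over all genes, the step from SCA1low to SCA1int in LY6D+ cells called 0 genes higher and 26 lower (0.17%) at SCA1int, and the step from SCA1int to SCA1high in LY6D+ cells had 4 genes higher at SCA1int (0.0262%). In LY6D- cells 18 genes were higher (0.118%) and 9 lower (0.0589%) at SCA1int than at SCA1low, and 16 were higher (0.105%) and 1 lower (0.00655%) at SCA1int than at SCA1high. These steps share libraries with the LY6D comparison.

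The promoter of Pbsn is shown for the hormone response it is known for. RefSeq's table for GRCm38.p6 gives chrX:77853451-77853750 on the minus strand, from 250 bases before to 50 after its start. The capitals mark AGAACA, core letters of the androgen receptor's response element, searched on both strands.
Pbsn promoter: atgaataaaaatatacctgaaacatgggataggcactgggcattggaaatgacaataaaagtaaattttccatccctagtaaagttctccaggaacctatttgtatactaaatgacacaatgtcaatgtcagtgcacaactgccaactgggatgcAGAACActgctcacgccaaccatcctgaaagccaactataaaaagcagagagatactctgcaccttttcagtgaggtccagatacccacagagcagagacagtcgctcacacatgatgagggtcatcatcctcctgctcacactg
A promoter was in the table for 16 of the 25 secreted protein genes, and 8 of the 16 (50%) held AGAACA at 1 start or more. Of all 27025 genes with a promoter 21.3% did. A match of 6 letters is a description of the window and not a binding site.

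Hspa5, Dnajc10 and Prdx6 were also lower in LY6D+ cells. Hspa5 is the 1 of these 3 on the list of ER genes. Hspa5 (BiP, the main ER chaperone) had 842 and 1022 CPM in LY6D+ cells, against 2044 and 2523 CPM in LY6D- cells. Its log2 fold change was -1.29 ± 0.25 (adjusted p = 0.0154). Hspa5 did not pass with RLE size factors (-1.16, adjusted p = 0.0762) or with DESeq2 (-1.16, adjusted p = 0.296). Dnajc10, an ER disulfide reductase that works with BiP, had 119 and 80.9 CPM in LY6D+ cells, against 402 and 537 CPM in LY6D- cells (-2.23 ± 0.46, adjusted p = 0.0262). Prdx6, a cytosolic peroxidase that also cleaves phospholipids, had 158 and 79.6 CPM in LY6D+ cells and 727 and 754 CPM in LY6D- cells (-2.64 ± 0.42, adjusted p = 0.00151). Without LY6D- SCA1int replicate 2, neither Hspa5 (-1.05, adjusted p = 0.429) nor Dnajc10 (-1.93, adjusted p = 0.418) passed, and without LY6D+ SCA1int replicate 2 Dnajc10 did not (-1.95, adjusted p = 0.244).

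Among 29 tested genes of ER translocation and chaperones, Hspa5 was the 1 that fell. The median log2 difference was -1.24, 26 of the 29 were negative, 11 were below an unadjusted p of 0.05 and 19 had both LY6D+ libraries under both LY6D- libraries. Of all genes tested, 2.93% were lower at that p and 17.3% had both LY6D+ libraries under both LY6D- libraries. Pdia6, a disulfide isomerase, had 161 and 60.1 CPM in LY6D+ cells and 579 and 387 CPM in LY6D- cells (-2.13 ± 0.52, adjusted p = 0.127). Dnajc3, a BiP co-chaperone, had 17 and 37.7 CPM in LY6D+ cells and 143 and 227 CPM in LY6D- cells (-2.76 ± 0.88, adjusted p = 0.665). Regulators of the unfolded protein response, with 16 tested, gave 0 calls, 1 gene below an unadjusted p of 0.05 and a median of -1.43. Golgi and vesicle transport, with 26 tested, also gave 0 calls, 2 genes below an unadjusted p of 0.05 and a median of -0.91.

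The ER stress response element, which the factors ATF6 and NF-Y are known to bind, was looked for by its letters in promoters of the ER list. The letters CCAAT and CCACG with 9 bases of any kind between them were searched on both strands of the RefSeq promoters. They occurred in 7 of the 23 genes of the ER list with a promoter (30.4%), against 0.137% of all genes with one and 0 of the 16 secreted protein genes. The list is of ER genes and the element is that of the ER stress response, so this is a description and not a test. A match of letters is not a binding site. Hspa5 is shown whole, as the list's gene that fell, with the conserved ends of its element in capitals (GRCm38.p6, chr2:34771840-34772139, plus strand).
Hspa5 promoter: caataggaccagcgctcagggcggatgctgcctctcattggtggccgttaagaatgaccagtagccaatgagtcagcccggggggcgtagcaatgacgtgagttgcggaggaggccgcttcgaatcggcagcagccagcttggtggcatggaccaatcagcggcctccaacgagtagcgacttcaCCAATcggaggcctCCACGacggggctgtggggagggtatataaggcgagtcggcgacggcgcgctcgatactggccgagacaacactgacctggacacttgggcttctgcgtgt
The elements of all 7 genes are set out next, on the strand that reads CCAAT first.
Hspa5, chr2:34772025-34772043: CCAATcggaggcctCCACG
Hsp90b1, chr10:86705638-86705656: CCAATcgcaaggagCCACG
Hsp90b1, chr10:86705533-86705551: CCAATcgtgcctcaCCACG
Calr, chr8:84847075-84847093: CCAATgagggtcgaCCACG
Canx, chr11:50325800-50325818: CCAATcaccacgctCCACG
Pdia6, chr12:17266491-17266509: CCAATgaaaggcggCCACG
Creld2, chr15:88819520-88819538: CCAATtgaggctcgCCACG
Dnajc3, chr14:118937827-118937845: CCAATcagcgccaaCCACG
Of these 7 genes Hspa5 passed the test, and Hsp90b1, Calr, Canx, Pdia6, Creld2 and Dnajc3 did not, with log2 differences of -1.29, -0.24, -0.24, -2.13, -2.94 and -2.76 in that order.

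The MHC class I genes B2m and H2-D1 were lower in LY6D+ cells too. B2m, the light chain of MHC class I, had 129.6 and 137 CPM in LY6D+ cells and 743 and 569 CPM in LY6D- cells (log2 fold change -2.30 ± 0.40, adjusted p = 0.00405). H2-D1, a class I heavy chain, had 172 and 199 CPM in LY6D+ cells and 741 and 666 CPM in LY6D- cells (-1.93 ± 0.40, adjusted p = 0.0262). H2-D1 did not pass without any 1 of the 4 SCA1int libraries (-2.01 to -1.81, adjusted p = 0.0727 to 0.326). Of 33 tested interferon and MHC class I genes these 2 fell, and the median log2 difference was -1.77. In that direction 6 of the 33 were below an unadjusted p of 0.05 (2.93% of all genes were), and 0 in the other. Among those that did not pass, Iigp1, an interferon-induced GTPase, had 44.2 and 30.1 CPM in LY6D+ cells and 283 and 234 CPM in LY6D- cells (-2.80 ± 0.67, adjusted p = 0.108). Irf1, an interferon-responsive transcription factor, had 152 and 159.6 CPM in LY6D+ cells and 573 and 488 CPM in LY6D- cells (-1.77 ± 0.54, adjusted p = 0.563).

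C1ra and C1rb encode serine proteases of the first complement component and are near copies of each other. C1ra had 112 and 20.6 CPM in LY6D+ cells and 668 and 600.2 CPM in LY6D- cells (-3.26 ± 0.59, adjusted p = 0.00676). C1rb had 163 and 22.3 CPM in LY6D+ cells and 778 and 754 CPM in LY6D- cells (-3.05 ± 0.60, adjusted p = 0.0177). With the traced counts subtracted neither passed, at -3.37 for C1ra (adjusted p = 0.114) and -3.09 for C1rb (adjusted p = 0.133). Without LY6D+ SCA1int replicate 1 the values were -4.93 for C1ra and -5.08 for C1rb, and without LY6D+ SCA1int replicate 2 they were -2.48 and -2.21. Emp1, a membrane protein of epithelia, had 38.7 and 96.9 CPM in LY6D+ cells and 654 and 488 CPM in LY6D- cells (-3.07 ± 0.54, adjusted p = 0.00462).

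Endothelial markers moved with these genes. The summed level of 18 endothelial markers was 94.4 and 361 CPM in LY6D+ cells, against 1757 and 1999 CPM in LY6D- cells. All 18 had a negative log2 difference, 11 were below an unadjusted p of 0.05, 0 passed, and the median was -3.49. Of all genes tested, 2.93% were lower at that p. Kdr, a receptor for vascular growth factor, had 2.21 and 22.4 CPM in LY6D+ cells and 166 and 276 CPM in LY6D- cells (-4.17 ± 0.96, adjusted p = 0.0800). In LY6D+ SCA1int replicate 1, 1 of the 18 was at 0 counts, and in the other 3 libraries none was. Without LY6D+ SCA1int replicate 2, Kdr passed (-6.61, adjusted p = 0.00098), as did Pecam1 (-5.93, adjusted p = 0.00594). The part of endothelial RNA in the differences of B2m, H2-D1, Iigp1, Irf1 and Emp1 was not tested.

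**Figure D3:**
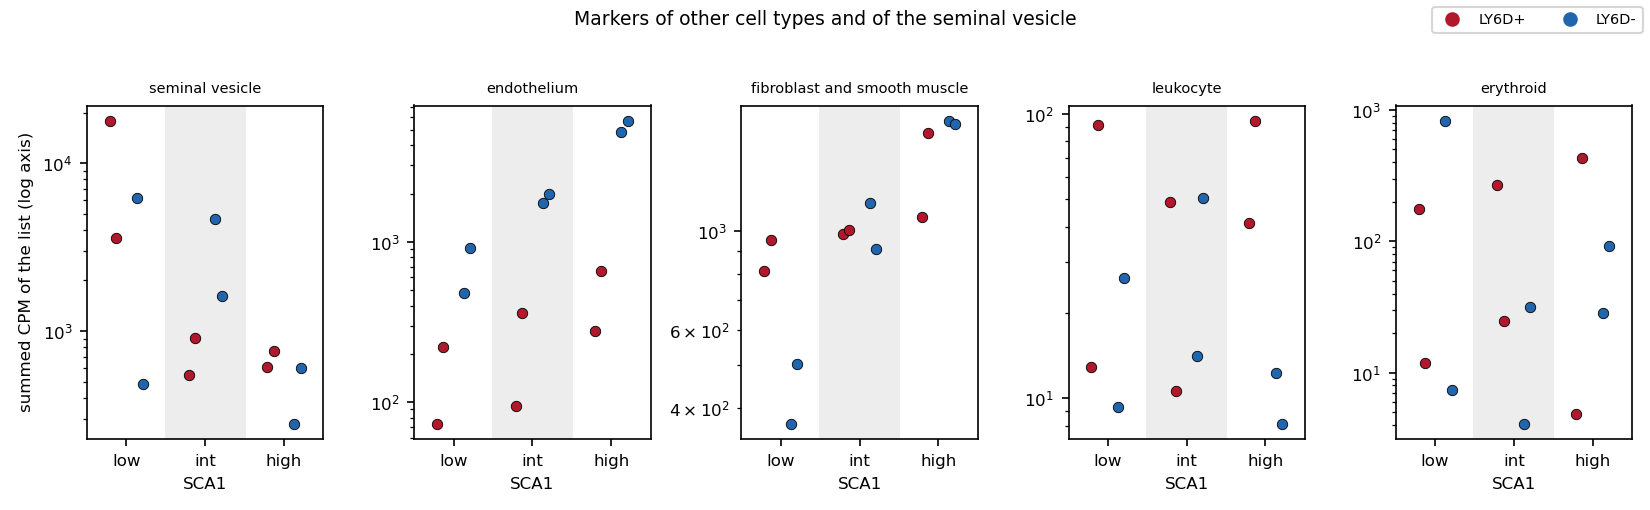
Summed CPM (log axes) of marker lists of the seminal vesicle and of 4 other cell types in every library, by SCA1 level with LY6D+ left (red) and LY6D- right (blue). At SCA1int (shaded) the endothelial sum was 94.4 and 361 CPM in LY6D+ libraries, against 1757 and 1999 CPM in LY6D- libraries, while the leukocyte and erythroid sums overlapped between them. The fibroblast sums overlapped too, but are mostly Dcn.

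Secretory genes of the seminal vesicle summed to 547 and 904 CPM in LY6D+ cells and 4642 and 1616 CPM in LY6D- cells. All 6 tested members were negative, 5 were below an unadjusted p of 0.05 (2.93% of all genes were lower at that p) and 0 passed. Svs5, for a seminal vesicle secretory protein, had 215 and 420.1 CPM in LY6D+ cells and 1623 and 685 CPM in LY6D- cells (-1.86 ± 0.72, adjusted p = 0.665). Without LY6D+ SCA1int replicate 2, Svs5 passed (-2.41, adjusted p = 6.82e-08). It had 8099 CPM in LY6D+ SCA1low replicate 1. Whether fluid or cells of that gland contribute to the secretory differences was not tested.

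Fibroblast and smooth muscle markers summed to 985 and 1004 CPM in LY6D+ cells and 1157 and 910.4 CPM in LY6D- cells, of which Dcn, a matrix proteoglycan, gave 894 and 817 CPM in LY6D+ cells and 452 and 482 CPM in LY6D- cells. The other 17 markers summed to 91.1 and 187 CPM in LY6D+ cells and 705 and 428 CPM in LY6D- cells, without overlap (a sum made after the values were seen, with no test). Col3a1, a fibrillar collagen, had 3.07 and 14.6 CPM in LY6D+ cells and 78.6 and 66.7 CPM in LY6D- cells (-3.04, adjusted p = 0.665). Of the 15 fibroblast genes tested 0 passed, 10 were negative and the median was -1.98. At an unadjusted p below 0.05, 1 was higher and 5 were lower (3.24% and 2.93% of all genes were). The part of stromal RNA in the differences of C1ra, C1rb and the other called genes was not tested. Leukocyte markers summed to 49 and 10.6 CPM in LY6D+ cells and 14.1 and 50.6 CPM in LY6D- cells, with 6 to 11 of 18 at 0 counts. Erythroid markers summed to 269 and 24.8 CPM in LY6D+ cells and 4.07 and 31.7 CPM in LY6D- cells. Of 6 leukocyte and 4 erythroid genes tested 0 passed, and the medians were 3.42 and 3.72. At an unadjusted p below 0.05, 0 and 2 were higher (3.24% of all genes were) and 0 lower. Only 2 of the 6 leukocyte genes reached 10 CPM in any of the 4 libraries, so their median rests mostly on low counts. Neuroendocrine and nerve markers were all under 1 CPM in the 4 libraries, and none could be tested.

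Tags of small and nuclear RNAs went in both directions. The libraries tag polyadenylated RNA. Whether the tags of small RNAs, small nucleolar RNAs among them, come from the mature forms was not tested. Malat1, an abundant nuclear long noncoding RNA, had 19156 and 15164 CPM in LY6D+ cells, against 10024 and 9205 CPM in LY6D- cells (log2 fold change 0.84 ± 0.17, adjusted p = 0.0255). Malat1 did not pass with DESeq2 (0.94, adjusted p = 0.457) or with limma (0.92, adjusted p = 0.0888). Gm37376, whose annotation lies inside Malat1 on the other strand, rose by 1.01 ± 0.21 (adjusted p = 0.0337) and cannot be told apart from it. Neat1, the scaffold RNA of nuclear paraspeckles, had 854 and 589 CPM in LY6D+ cells and 321 and 200.5 CPM in LY6D- cells and did not pass (1.47 ± 0.47, adjusted p = 0.665). Rn7sk, the 7SK RNA that holds the elongation factor P-TEFb inactive, had 308 and 175 CPM in LY6D+ cells and 1950.5 and 1204 CPM in LY6D- cells (-2.71 ± 0.45, adjusted p = 0.00281). An unnamed identifier had the same count as Rn7sk in every library. Gm26315 and Gm24447 fell as well, by 2.75 each on the log2 scale (adjusted p = 0.00134 for both). Their counts differed by 0 to 6 in each of the 4 libraries, so these are not independent calls.

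The small nucleolar RNA Snord13, which guides acetylation of ribosomal RNA, had 62.6 and 58.6 CPM in LY6D+ cells and 466 and 310.4 CPM in LY6D- cells (-2.68 ± 0.54, adjusted p = 0.0208). Snora30, within the gene Srcap on the same strand, had 0.0539 and 0.529 CPM in LY6D+ cells and 150.1 and 25.3 CPM in LY6D- cells (-8.19 ± 1.75, adjusted p = 0.0355). Its LY6D+ counts were 1 and 10, so the size of the change is poorly set. Gm26917, a long noncoding RNA gene, had 277 and 208 CPM in LY6D+ cells and 1282 and 1272 CPM in LY6D- cells (-2.40 ± 0.42, adjusted p = 0.00467). All 141 small nucleolar RNA genes summed to 343 and 369.9 CPM in LY6D+ cells and 1070.0 and 605 CPM in LY6D- cells. Snord13 did not pass without LY6D+ SCA1int replicate 1, LY6D+ SCA1int replicate 2 or LY6D- SCA1int replicate 1 (-2.71, -2.61 and -2.32, adjusted p = 0.118, 0.135 and 0.416 in that order), nor Snora30 without either first replicate (-7.34 and -6.36, adjusted p = 0.119 and 0.169).

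Among the other called genes, Tspan1, a tetraspanin listed with proximal luminal genes, had 25.3 and 23.2 CPM in LY6D+ cells and 262 and 238 CPM in LY6D- cells (-3.37 ± 0.64, adjusted p = 0.0123). Tspan1 did not pass with the traced counts subtracted (-4.17, adjusted p = 0.442) or with limma (-3.22, adjusted p = 0.121). Tcaf3, related to regulators of TRP ion channels, had 67.7 and 25.1 CPM in LY6D+ cells and 380.3 and 352 CPM in LY6D- cells (-2.98 ± 0.60, adjusted p = 0.0208). Gm5615 had 2.59 and 39.3 CPM in LY6D+ cells and 597 and 516 CPM in LY6D- cells (-4.73 ± 0.85, adjusted p = 0.00593), and its value was -7.72 without LY6D+ SCA1int replicate 2 and -3.81 without LY6D+ SCA1int replicate 1. Of 26 tested proximal luminal genes Ly6d rose and Tspan1 fell, and the median log2 difference was -0.37. Clu, a secreted chaperone of that list, had 34.7 and 61.8 CPM in LY6D+ cells and 302 and 215 CPM in LY6D- cells (-2.42 ± 0.77, adjusted p = 0.665).

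Genes other than Ly6d, Malat1 and Gm37376 did not pass in the higher direction, and the basal and stratified lists give values only. Sfn (14-3-3 sigma, a protein of stratified epithelia) had 987 and 932 CPM in LY6D+ cells and 437 and 292 CPM in LY6D- cells (1.40 ± 0.40, adjusted p = 0.449). Palld, an actin-bundling protein, had 539.7 and 502 CPM in LY6D+ cells and 136 and 144 CPM in LY6D- cells (adjusted p = 0.472). Hmgcs1, an enzyme of cholesterol synthesis, had 220.2 and 149 CPM in LY6D+ cells and 22.3 and 15.9 CPM in LY6D- cells (3.27 ± 0.98, adjusted p = 0.523). None of these 3 groups overlapped, but the rule that named genes short of passing required this. Both LY6D+ libraries lay above both LY6D- libraries in 19.4% of all genes tested. Foxc1, a forkhead transcription factor, had 50.9 and 60.2 CPM in LY6D+ cells and 0.36 and 1.2 CPM in LY6D- cells (6.15 ± 1.87, adjusted p = 0.563), but 72.5 and 41.8 CPM in LY6D- SCA1high cells.

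Of 23 tested basal genes 0 passed at SCA1int, and the median log2 difference was 1.03. At an unadjusted p below 0.05, 2 were higher (3.24% of all genes were) and 0 lower. Both LY6D+ libraries lay above both LY6D- libraries in 13 and under them in 3 (19.4% and 17.3% of all genes). Krt15 had 2734 and 1482 CPM in LY6D+ cells and 964 and 1087 CPM in LY6D- cells (1.04 ± 0.42, adjusted p = 0.665). Krt14 had 373 and 324 CPM in LY6D+ cells and 178 and 193 CPM in LY6D- cells (0.91 ± 0.55, adjusted p = 0.665). At SCA1high 6 genes of the same list passed as higher in LY6D+ cells (0.138% of all genes did) and at SCA1low 7 did (0.38% of all genes). Of 14 tested stratified genes 0 passed at SCA1int, and 2 were higher and 0 lower at an unadjusted p below 0.05. Both LY6D+ libraries lay above both LY6D- libraries in 9 and under them in 0, and the median was 2.31. That median was 1.18 when Krt6a, with no count in the LY6D- SCA1int libraries, was put at its bound of 3 counts per library.

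**Figure D4:**
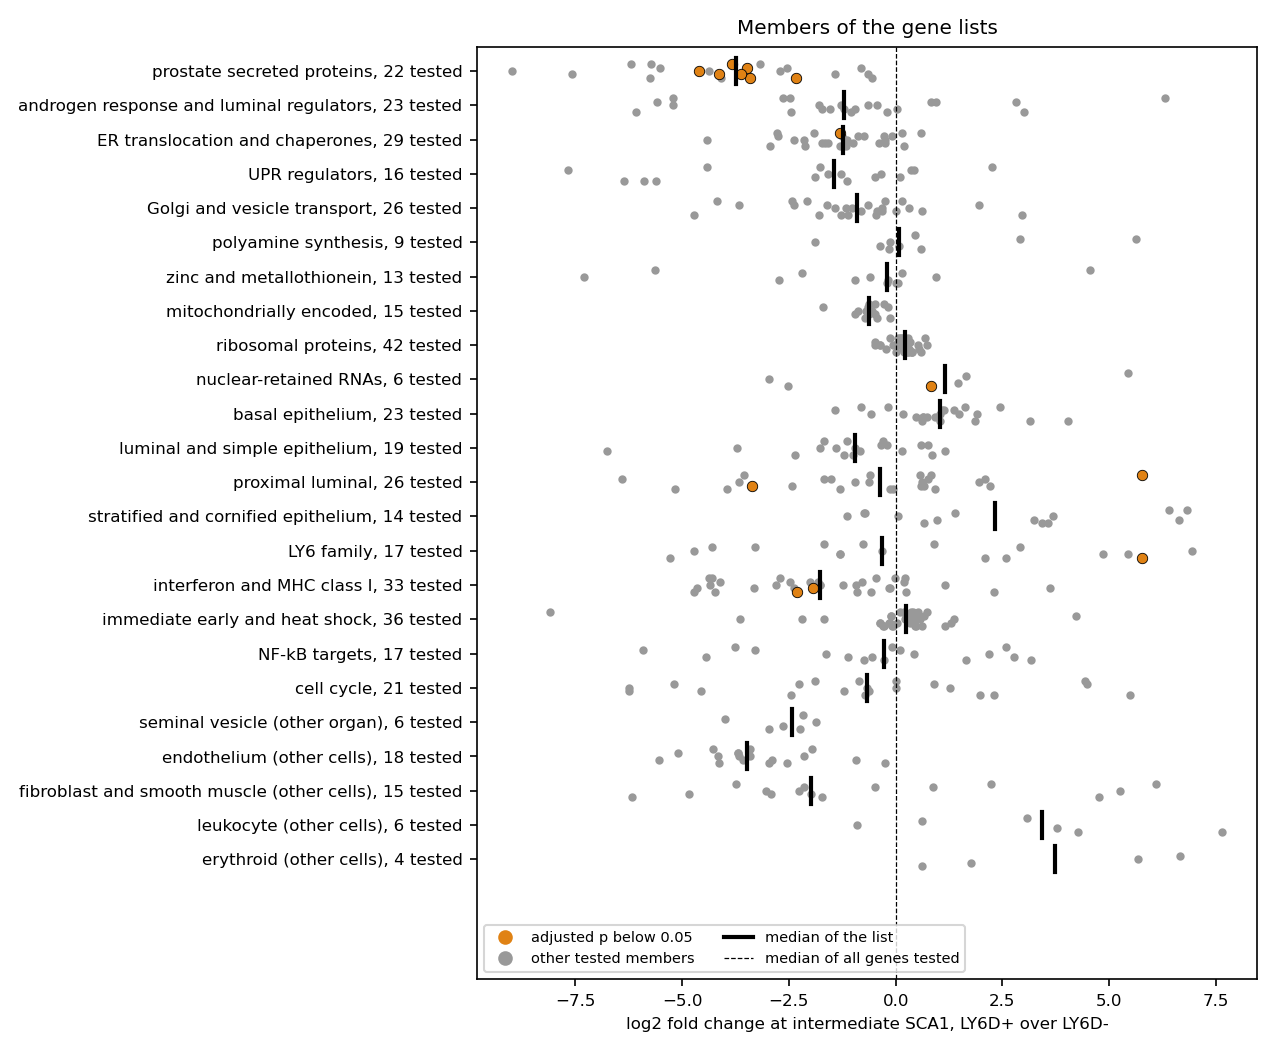
Log2 fold change at SCA1int in LY6D+ over LY6D- cells (x) of every tested member of 24 gene lists (rows). Orange points passed the test, black bars are list medians and the dashed line is the median of all genes. The secreted proteins have 7 members that passed, all to the left, and the list's bar is at -3.74.

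Whether the LY6D difference at SCA1int departs from that at the other levels was tested directly, as the difference of the 2 log2 fold changes. Against SCA1high 4 genes passed (0.0262%) and against SCA1low 9 genes passed (0.0589%), all with a lower value at SCA1int. At an unadjusted p below 0.05 there were 1312 (8.59%) and 1388 (9.09%) genes. Spink1 passed in both tests. Its LY6D difference of -4.60 ± 0.35 at SCA1int compares with -2.08 ± 0.32 at SCA1high and -2.03 ± 0.31 at SCA1low (differences -2.52 ± 0.43, adjusted p = 0.0127, and -2.57 ± 0.44, adjusted p = 0.00843). Pbsn passed against SCA1low (-2.05 ± 0.39, adjusted p = 0.0280), where its own LY6D difference was -1.37 ± 0.28. Spink1 lost both calls with RLE size factors (-2.24 against SCA1high, adjusted p = 0.333, and -1.91 against SCA1low, adjusted p = 0.557), with DESeq2 (adjusted p = 0.359 and 0.399) and with limma (adjusted p = 0.920 and 0.709). Pbsn lost its call with RLE size factors (-1.41, adjusted p = 0.586), with DESeq2 (-1.42, adjusted p = 0.502), with limma (-1.99, adjusted p = 0.709), without features of the ribosomal RNA repeat (-1.85, adjusted p = 0.0664) and with the traced counts subtracted (-2.09, adjusted p = 0.524).

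Defb50 turned round. LY6D+ cells had less of it at SCA1int (-2.34 ± 0.25) and more at SCA1high, where it had 888 and 683 CPM in LY6D+ cells and 333 and 361 CPM in LY6D- cells (1.18 ± 0.25, adjusted p = 0.0226). The difference of differences was -3.52 ± 0.35 (adjusted p = 1.7e-06). It was the 1 gene of the 28 that passed in opposite directions at these 2 levels. Of the same 28, 24 had a negative value at SCA1high, 9 of which passed (0.124% of all genes did), and 27 had one at SCA1low, 10 of which passed (0.0917% of all genes). The comparisons use different libraries, but were fitted with a shared spread.

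Mt2, a metallothionein that binds zinc and copper, also passed against SCA1high, with a value of -0.19 ± 0.24 at SCA1int (adjusted p = 0.866). It had 4456 and 2974 CPM in LY6D+ SCA1int and 4772 and 3692 CPM in LY6D- SCA1int cells. At SCA1high it had 4913 and 3165 CPM in LY6D+ cells and 1189.6 and 878 CPM in LY6D- cells, so that the difference of differences was -2.15 ± 0.34 (adjusted p = 0.00569).

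In most of the remaining genes LY6D- SCA1int cells had more RNA than LY6D- cells of another level. Ackr4, a scavenging receptor for chemokines, had 268 and 327 CPM in LY6D+ SCA1int and 157 and 248 CPM in LY6D- SCA1int cells (0.56 ± 0.68, adjusted p = 0.858). In LY6D- cells it had 0.86 and 1.21 CPM at SCA1low and 0.782 and 5.08 CPM at SCA1high, against 267 to 345 CPM in the 6 LY6D+ libraries. The differences were -6.12 ± 1.04 against SCA1high (adjusted p = 0.0125) and -7.63 ± 1.08 against SCA1low (adjusted p = 0.00188). Krt5 and Krt14, keratins of basal cells, behaved likewise at SCA1low. Krt5 had 3.76 and 4.16 CPM in LY6D- SCA1low cells, 95.7 and 199 CPM in LY6D- SCA1int cells and 22.4 and 41.9 CPM in LY6D- SCA1high cells. Its LY6D difference was 1.03 ± 0.61 at SCA1int and 6.35 ± 0.77 at SCA1low (difference -5.32 ± 0.92, adjusted p = 0.00843). For Krt14 the difference was -4.78 ± 0.82 (adjusted p = 0.00843).

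Tgm2, tissue transglutaminase, had 368 and 365 CPM in LY6D+ SCA1int and 373 and 505 CPM in LY6D- SCA1int cells. It had 639 and 835 CPM in LY6D+ SCA1low and 24.4 and 70 CPM in LY6D- SCA1low cells (difference -4.22 ± 0.67, adjusted p = 0.0058). Dusp6, a phosphatase of ERK, had 1036 and 487 CPM in LY6D+ SCA1int and 379 and 301 CPM in LY6D- SCA1int cells, against 628 and 1208 CPM in LY6D+ SCA1low and 16.5 and 28.4 CPM in LY6D- SCA1low cells (-4.19 ± 0.69, adjusted p = 0.00843). B2m was the exception, since there the LY6D+ cells moved: 1111 and 672 CPM in LY6D+ SCA1low against 129.6 and 137 CPM in LY6D+ SCA1int cells (-2.74 ± 0.54, adjusted p = 0.0426). B2m did not pass without LY6D+ SCA1low replicate 1, LY6D- SCA1int replicate 1 or LY6D- SCA1low replicate 1 (-2.20, -2.51 and -2.42, adjusted p = 0.442, 0.260 and 0.0902 in that order). With RLE size factors 1 gene passed against SCA1low in place of 9, namely Ackr4, and with limma none did.

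**Figure D5:**
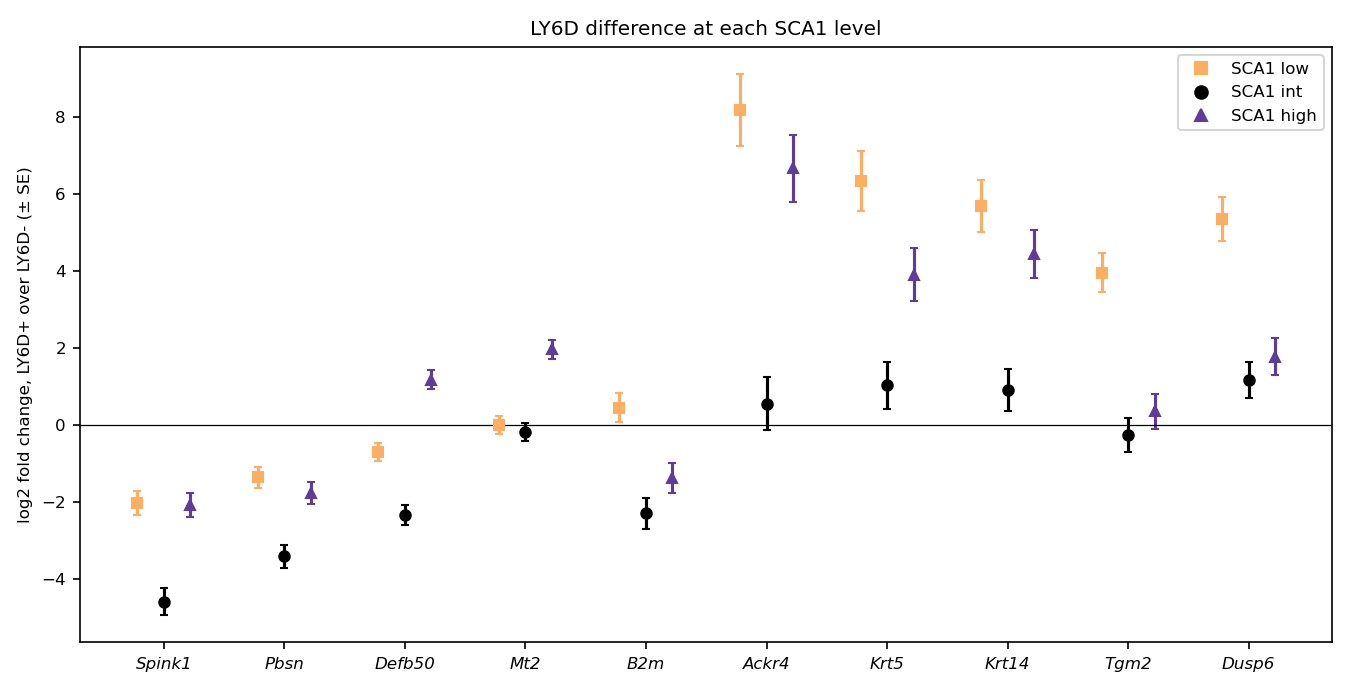
Log2 fold change (± SE) of LY6D+ over LY6D- cells at SCA1low, SCA1int and SCA1high for 10 genes whose LY6D difference at SCA1int departed from that at another level. SCA1int (black) is lowest of the 3 levels for Spink1, Pbsn, Defb50 and B2m, where it is negative. It is also lowest for Ackr4, Krt5 and Krt14, where it is positive, and is near 0 for Mt2 and Tgm2.

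Large gene classes gave no calls. All 15 mitochondrially encoded genes tested had a negative log2 difference, with 0 passing and a median of -0.62. At an unadjusted p below 0.05 there were 7 (2.93% of all genes were lower at that p). mt-Co1, a subunit of cytochrome oxidase, had 2662 and 1474 CPM in LY6D+ cells and 3416 and 2942 CPM in LY6D- cells (-0.62 ± 0.24, adjusted p = 0.665). Of 42 ribosomal protein genes 35 were positive, 2 were below an unadjusted p of 0.05, 0 passed and the median was 0.22. Of 23 androgen response genes and regulators of luminal identity 0 passed, 6 were positive, 2 were below an unadjusted p of 0.05 and the median was -1.21. Slc45a3, an androgen target also called prostein, had 17.8 and 7.41 CPM in LY6D+ cells and 53.4 and 103 CPM in LY6D- cells (-2.63 ± 1.09, adjusted p = 0.665). Pmepa1, an androgen-induced membrane protein, went the other way without overlap, with 118 and 105 CPM in LY6D+ cells and 13 and 18.5 CPM in LY6D- cells (2.82, adjusted p = 0.665). No member of the luminal keratin, polyamine, zinc, immediate early, NF-kB or cell cycle lists passed, at most 3 members of each were below an unadjusted p of 0.05, and their medians ran from -0.95 to 0.23. In the LY6 family Ly6d was the 1 of 17 tested that passed, and the median was -0.32. Among 6 nuclear-retained RNAs Malat1 was the 1 that passed.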

How the data were processed

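Sorted populations were profiled by 3′ tag sequencing (Lexogen QuantSeq FWD) from 10 to 20 ng of RNA. The deposited table holds raw counts per gene for 12 libraries, and a second deposited table holds the authors' normalised signal, which equals the counts divided by the TMM effective library size. Reads were processed, per the submitters' processing notes, by featureCounts, edgeR, STAR 2.5.1, cutadapt 1.9.1, Picard 1.96 and SAMtools 1.3.1, with mm10. The sources used here give neither annotation nor strand setting.

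Libraries were grouped by label into 6 populations of 2. Genes were filtered with filterByExpr (15270 of 48795 kept), scaled by TMM and fitted with edgeR 4.0.16 (R 4.3.3) as 1 mean per population. The quasi-likelihood test used 6 residual degrees of freedom, and p-values were adjusted by Benjamini-Hochberg over all genes tested. The biological coefficient of variation was 1.28. SE is the absolute log2 fold change over the square root of F. Symbols and coordinates come from GENCODE (GRCm38), with 48349 identifiers matched. The script was tested on simulated counts.

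The members and the 25 gene lists were chosen with earlier results of these data known. Genes were named by rule: the sort genes and markers, up to 15 per direction at a mean of 8 CPM or more, 4 per list and 6 per interaction. Where fewer than 15 passed in a direction, genes at an unadjusted p below 0.05 whose libraries did not overlap filled the places. The Gm and Rik genes, Tgm4, Krt6a, Hsp90b1, Calr, Canx and Creld2 fall outside it and were chosen after their values were seen. Some results that the rule names are not reported here. Alternatives were other scalings, no filter, DESeq2 1.42.0, limma 3.58.1 on the deposited values, a replicate block, the 4 libraries alone, ribosomal features left out and each library left out. The subtraction of traced counts, the fit without the pair of libraries that stand apart and leaving out SCA1high and SCA1low libraries were added after seeing the data.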

Additional observations from a re-analysis of the deposited data

Results flagged for a closer look

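The LY6D difference at SCA1int departed from that at another SCA1 level for the 10 genes given here, by an interaction test in edgeR over all genes tested. Relative to SCA1high, the difference of the log2 fold changes was -3.52 for Defb50, -2.15 for Mt2, -6.12 for Ackr4 and -2.52 for Spink1. Relative to SCA1low it was -7.63 for Ackr4, -4.22 for Tgm2, -4.19 for Dusp6, -2.57 for Spink1, -4.78 for Krt14 and -5.32 for Krt5. It was -2.05 for Pbsn and -2.74 for B2m. Each population had 2 libraries.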

How the results depend on the processing

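Of the 31 genes called at SCA1int, 5 passed under all 22 alternatives (9530053A07Rik, Defb50, Msmb, Pbsn and Spink1), 12 were lost under 1 or 2, 14 under more, and 0 changed direction. The count of 31 was 52 with no filter, 765 with DESeq2 (446 higher and 319 lower, 22 shared with the 31), 7 with limma, 12 with the 4 SCA1int libraries alone and 73 without both LY6D+ SCA1high replicate 2 and LY6D- SCA1low replicate 2. With 1 library left out it was 31 to 62. The 4 genes called against SCA1high were 15 with no filter, 711 with DESeq2, 1 with limma, 25 without those 2 libraries and 6 to 26 with 1 library left out. The 9 called against SCA1low were 1 with RLE size factors, 20 with no filter, 841 with DESeq2, 0 with limma (898 at an unadjusted p below 0.05), 32 without those 2 libraries and 10 to 27 with 1 left out. The cause of these shifts was not tested. RLE moved the median log2 fold change of all genes to 0.13 at SCA1int, and to 0.23 for the difference against SCA1low, from -0.30. Values of Krt8, Mt2 and Tgm2, none of which passed, changed sign when 1 library was left out. Krt8 ran from -1.79 to 0.033 (positive without LY6D- SCA1int replicate 1) and Tgm2 from -0.42 to 0.054 (positive without LY6D- SCA1int replicate 2). Mt2 ran from -0.49 to 0.095 (positive without LY6D+ SCA1int replicate 2, LY6D- SCA1int replicate 1 or LY6D- SCA1low replicate 1).

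A prefix in the deposited column names separates all first replicates from all second replicates, and its meaning is not given. Over 15 pairs of populations, same-numbered libraries' deviations correlated at -0.135 to 0.0953. Such values cannot decide whether the libraries are paired by replicate number. With the replicate number as a block, 43, 5 and 13 genes passed in place of 31, 4 and 9. With 2 libraries per population, a difference that did not pass is not shown to be absent.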
